A study of Mus musculus with 12 samples.

Results

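Amino acids cross cell membranes through carriers of the solute carrier (SLC) families, and 34 mouse genes for such carriers were followed here across 4 kinds of cultured brain cells. The rule for the genes was their name and not a threshold on their values, although earlier results of these data were known when they were listed, and all 34 had a line among the 53932 gene identifiers measured. Transcript levels are given as FPKM, fragment numbers scaled to transcript length and library size. The length scaling allows levels of different genes in a library to be set side by side, and differences between libraries also depend on the scaling, as given below. The light chain gene Slc7a5, a close relative of several of them, was not analysed here.

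There were 3 bulk RNA libraries in each of 4 groups, all labelled as strain C57BL/6. The Glioblastoma libraries came from a tumour culture labelled with cerebella as its tissue and E18.5 as its age, and how the tumour arose is not given in the sources used here. For the NSC libraries, cortex of E14.5 embryos was the source of neural stem cells, kept as neurospheres in medium with EGF and FGF2. Astrocytes carry the same tissue and age labels. The growth text describes 2 sources for them, postnatal day 4 cortex sorted with an anti-GLAST kit or dissociated neurospheres differentiated in serum, and does not say which was used. MIM-Astrocytes are astrocytes moved from serum medium into MIM, a serum-free medium that carries FGF2 and up to 6 metabolites: glycine, cysteine, methionine, putrescine, threonine and S-adenosylmethionine. They were collected by day 5, and the combination used for these libraries is not stated. Since the base medium, serum, FGF2 and metabolites changed together, their parts in any difference between MIM-Astrocytes and Astrocytes cannot be told apart. Glioblastoma differs from NSC and Astrocytes in tissue label and age label as well as in being a tumour. The parts of these in any Glioblastoma difference cannot be told apart either. Whether the libraries of a group are separate cultures is not stated, so p-values speak only of how far these libraries spread.

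Carriers of this kind differ in what drives them. Sodium-coupled carriers concentrate amino acids, exchangers swap one amino acid for another, and facilitators let them run down a gradient. Some exchangers are pairs of proteins, in which a heavy chain (SLC3A2, also called CD98hc) takes a light chain to the cell surface and the light chain sets the substrates. When amino acids are short, the kinase GCN2 raises translation of the transcription factor ATF4, and several carrier genes are known ATF4 targets. In brain, astrocytes release glutamine to neurons through SLC38 carriers and take up glycine through SLC6A9.

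Defining markers followed the labels in part. Of 6 astrocyte genes, all were above 1 FPKM in Astrocytes (summed level 983 to 1099 FPKM) and MIM-Astrocytes (451 to 473), and 5 were in NSC (239 to 286) and Glioblastoma (13.3 to 15.4). Gfap and Aqp4 had means of 258 and 397 FPKM in Astrocytes and 7.35 and 35.5 in MIM-Astrocytes, whereas Gja1 (244 and 243), Aldh1l1 (70.8 and 75.5) and Slc1a2 (54.3 and 73.9) were closer and S100b was lower in Astrocytes (5.97 and 25.4). All 4 cycling-cell genes were above 1 FPKM in the other groups against 2 of 4 in Astrocytes, and their summed level was 5.32 to 5.65 FPKM in Astrocytes, 339 to 359 in MIM-Astrocytes, 102 to 120 in NSC and 323 to 340 in Glioblastoma. Of 7 meningeal fibroblast genes, 4 were above 1 FPKM in Astrocytes (summed level 280 to 328 FPKM) and 2 in MIM-Astrocytes (19.9 to 22.6), while the summed level stayed at or below 2.37 FPKM in the other groups and Dcn and Lum were at or below 0.098 FPKM in every library. Of 7 microglial genes none exceeded 1 FPKM as a group mean, and of 5 endothelial genes only Slco1a4 did so, in Astrocytes (117 FPKM) and MIM-Astrocytes (2.76), with Cdh5 listed at 0 in every library. The 4 ependymal genes summed to 39.2 to 48.7 FPKM in Astrocytes (Foxj1 37.5), 12.3 to 14.3 in MIM-Astrocytes, 2.55 to 2.94 in NSC and 0.473 to 0.672 in Glioblastoma. The 5 neuronal genes summed to 24.0 to 24.4 FPKM in Glioblastoma (Syt1 19.6) and to at most 6.95 in any other library, and the 5 oligodendrocyte lineage genes to 53.1 to 59.2 in NSC and 18.4 to 38.1 elsewhere. The part of cell type mixture or of division rate in the carrier differences was not tested, and in bulk RNA fewer cells of a type and less RNA per cell cannot be told apart.

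Tests used limma on log2(FPKM + 1) over all 12 libraries, with Benjamini-Hochberg adjustment over 16982 genes in each of 6 pairwise comparisons. A gene is called higher or lower at an adjusted p below 0.05. Of the 34 carriers, 27 reached 1 FPKM in at least 3 libraries and were tested. Of these, 3 genes, Slc38a4, Slc43a1 and Slc7a10, passed that filter only through the 3 libraries of the group where they were highest.

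Glioblastoma had the highest mean for 15 of the 27 tested carriers (55.6%, against 41.4% of all tested genes). Among them was Slc38a4, which passed the filter only through Glioblastoma and also counts in the calls of Glioblastoma against each other group. Which group was highest was not recomputed under other scalings. NSC was highest for 5 (18.52%, against 18.4%), of which Slc43a1 and Slc7a10 passed the filter only through NSC, Astrocytes for 5 (18.52%, against 25.6%) and MIM-Astrocytes for 2 (7.41%, against 14.6%). Against Astrocytes, 20 carriers were called higher in Glioblastoma and 5 lower, while 47% of all tested genes were called higher and 31.3% lower. Against NSC, 18 were called higher in Glioblastoma and 5 lower, beside 44.8% and 25.1% of all genes. The median difference of the tested carriers was 0.80 on the log2 scale against Astrocytes and 0.83 against NSC, and the median of all tested genes was 0.23 and 0.19. When every library was scaled to a common total, the counts against Astrocytes became 14 higher and 6 lower, beside 27.5% and 47.1% of all genes, and the medians 0.32 for the carriers and -0.26 for all genes.

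MIM-Astrocytes and Astrocytes differed in both directions. In that comparison 10 carriers were called higher in MIM-Astrocytes, 10 lower and 7 not called, beside 34.8% of all genes higher and 26.6% lower, and the carriers' median difference was 0.01 against 0.09 for all genes. NSC against Astrocytes gave 11 higher and 9 lower, beside 37.7% and 33.4% of all genes. MIM-Astrocytes against NSC gave 9 higher and 11 lower, beside 31% and 24.9%. Slc43a1 and Slc7a10, which passed the filter only through NSC, are among the carriers higher in the first of these comparisons and lower in the second. Both are also among those called lower in Glioblastoma against NSC. MIM-Astrocytes against Glioblastoma gave 5 higher and 18 lower, beside 28.3% and 41.5%. The values of both groups did not overlap for 20 carriers in MIM-Astrocytes against Astrocytes (64.5% of all genes), 21 in NSC against Astrocytes (73%), 24 in Glioblastoma against Astrocytes (79.9%), 21 in MIM-Astrocytes against NSC (62.3%), 22 in Glioblastoma against NSC (75%) and 23 in MIM-Astrocytes against Glioblastoma (74.5%). These counts are of the 27 tested carriers. In comparisons with NSC they include Slc43a1 and Slc7a10, and in comparisons with Glioblastoma they include Slc38a4. Comparisons that share a group share its libraries and are not independent of each other.

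Group means of 17 carriers spanned at least 1 unit of log2(FPKM + 1), which is 63.0% of those tested, and 54.0% of all tested genes did so. These 17 are shown by library.

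**Figure D1:**
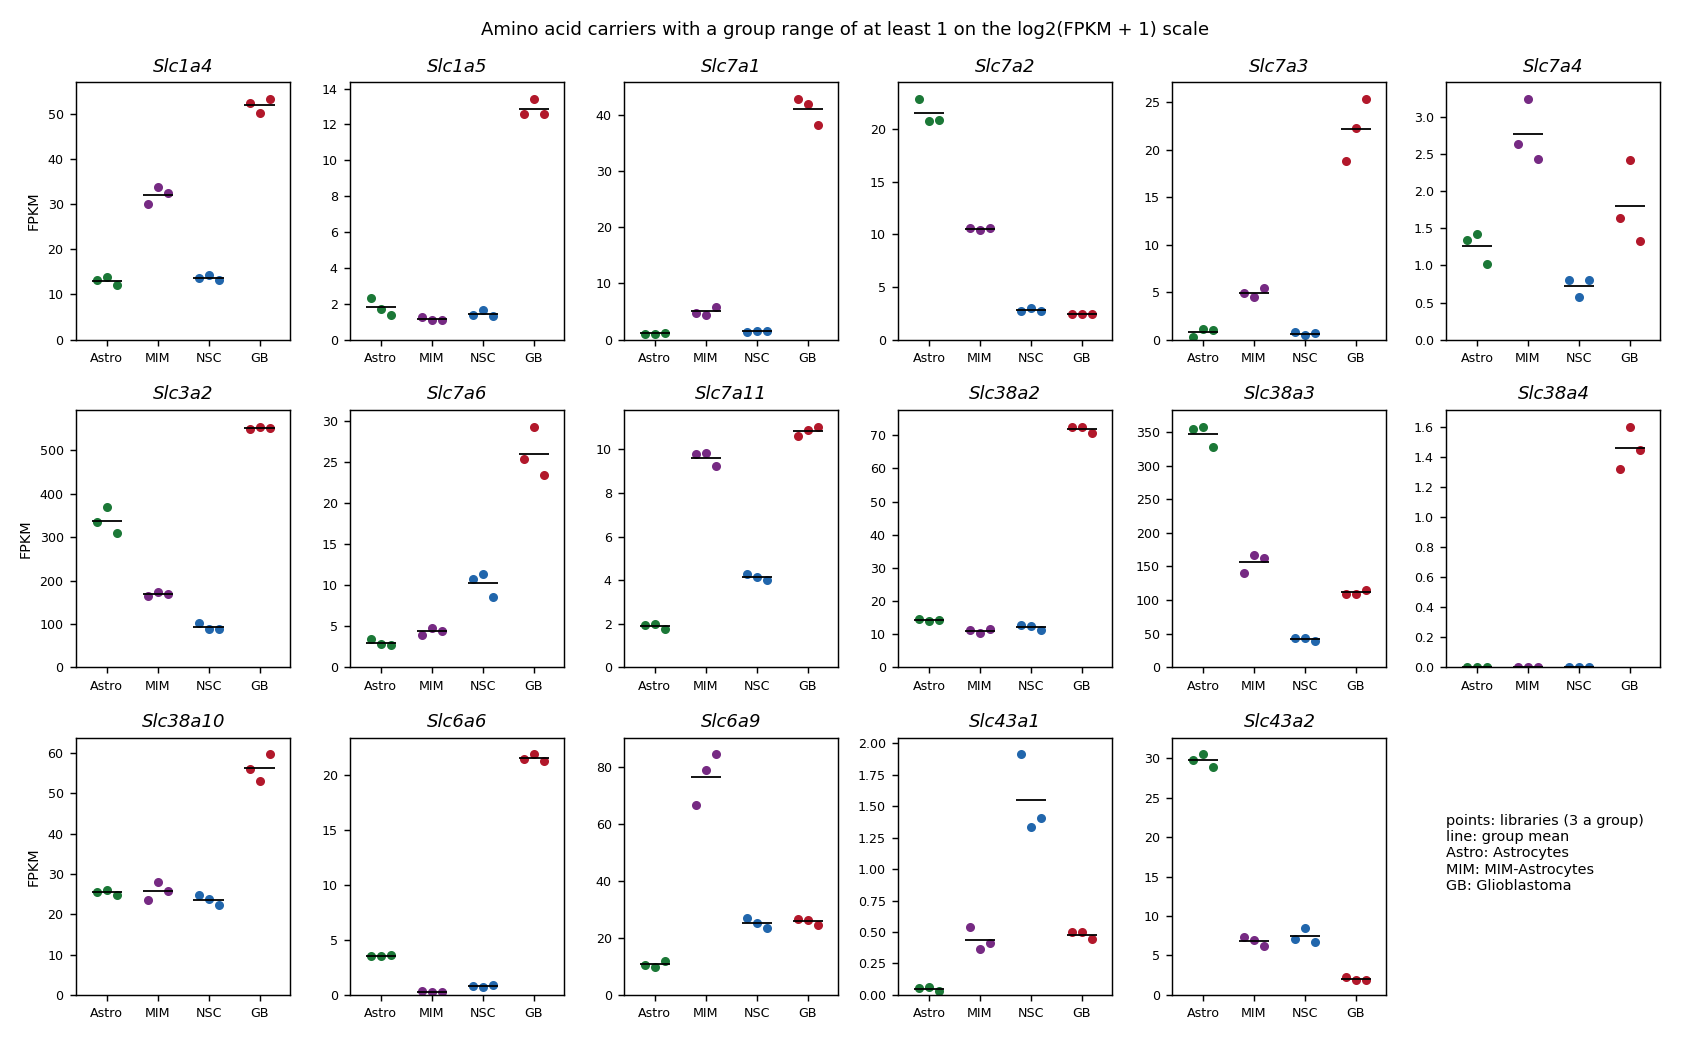
FPKM (y axis, linear from 0, a scale of its own in each panel) of 17 carrier genes in Astrocytes (Astro), MIM-Astrocytes (MIM), NSC and Glioblastoma (GB), with a point for each of 3 libraries and a line at the group mean. Slc6a9 and Slc7a4 have their highest mean in MIM-Astrocytes, Slc7a2, Slc38a3 and Slc43a2 in Astrocytes, Slc43a1 in NSC, and the other 11 in Glioblastoma.

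FPKM depend on the rest of each library, and the FPKM summed over all genes ran from 514728 to 979106, lowest on average in Astrocytes. Scaling every library to a common total moved the median difference of all genes by -0.49 in Glioblastoma against Astrocytes, -0.31 in NSC against Astrocytes, -0.26 in MIM-Astrocytes against Astrocytes, -0.17 in Glioblastoma against NSC and 0.21 in MIM-Astrocytes against Glioblastoma. Under that scaling the carriers called higher and lower became 8 and 13 in MIM-Astrocytes against Astrocytes, beside 18.9% and 40% of all genes, and 6 and 13 in NSC against Astrocytes, beside 22.3% and 46.2%. In Glioblastoma against NSC they became 15 and 7 with median-of-ratios scaling (35.7% and 33.6% of all genes), 15 and 7 with quantile normalization (36% and 32.3%), and 14 and 7 when mitochondrial genes and small RNAs were left out of the totals (34.4% and 37.3%). The called carrier differences described next kept their direction and call under these scalings except where stated. Differences that were not called are outside this statement, and some of them gained a call under another scaling.

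Slc3a2 (chr19:8706882-8723369, GRCm38, minus strand) encodes the heavy chain and had the highest mean of the 34 carriers in Glioblastoma, NSC and MIM-Astrocytes. Its level was 549, 555 and 552 FPKM in the Glioblastoma libraries, 335, 370 and 311 in Astrocytes, 165, 173 and 168 in MIM-Astrocytes, and 103, 88.5 and 88.6 in NSC. The 4 groups did not overlap. MIM-Astrocytes had 2.00-fold less than Astrocytes (difference in log2(FPKM + 1) -0.995, SE 0.08, adjusted p = 2.04e-06), and NSC 3.62-fold less (-1.85, SE 0.08, adjusted p = 1.08e-08). Glioblastoma had 5.91-fold more than NSC (2.55, SE 0.08, adjusted p = 1.48e-09). Its 0.71 (SE 0.08, adjusted p = 1.49e-05) over Astrocytes was 0.09 (adjusted p = 0.47) with a common total and -0.13 (adjusted p = 0.158) with quantile normalization.

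The light chain Slc7a11 (chr3:49892526-50443614, minus strand), which imports cystine in exchange for glutamate and so feeds glutathione synthesis, had another order. Its level was 9.79, 9.84 and 9.24 FPKM in MIM-Astrocytes, 1.95, 1.99 and 1.76 in Astrocytes, 4.30, 4.15 and 4.02 in NSC, and 10.6, 10.9 and 11.04 in Glioblastoma. MIM-Astrocytes stood close to Glioblastoma and well above Astrocytes. They had 5.06-fold more than Astrocytes (1.87, SE 0.05, adjusted p = 3.06e-10) and 2.31-fold more than NSC (1.04, SE 0.05, adjusted p = 6.51e-08). Against Glioblastoma the difference was -0.16 (SE 0.05, adjusted p = 0.0137). That last call was lost under 4 other settings of the scaling, in each of which the sign was positive (0.01 to 0.10, adjusted p from 0.328 to 0.781), and without the third MIM-Astrocytes library (-0.13, adjusted p = 0.0561). The locus overlaps several unnamed gene models on both strands, and the strand of the libraries is not given.

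Several carriers are known ATF4 targets, among them Slc7a11 and the neutral carrier Slc1a4, described further on. Carrier promoters were therefore searched for the letters of the C/EBP-ATF response element, TGATGNAA, on both strands. Stretches are printed for the tested carriers with a match. Sequences are the RefSeq windows (GRCm38.p6) of 250 bases before to 50 after each start, given 5′ to 3′ along the gene with the matching letters in capitals.
Slc7a11: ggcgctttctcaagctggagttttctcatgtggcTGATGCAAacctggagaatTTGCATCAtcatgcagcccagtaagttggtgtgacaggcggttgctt
Slc1a4: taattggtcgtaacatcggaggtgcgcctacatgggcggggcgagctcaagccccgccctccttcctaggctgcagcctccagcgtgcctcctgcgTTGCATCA
The Slc7a11 stretch (chr3:50443614-50443713, minus strand) runs from 100 to 1 bases before the start and holds a pair of matches, 1 on each strand, beginning at positions -66 and -47. The Slc1a4 stretch (chr11:20332710-20332813, minus strand) ends with 1 match on the opposite strand that spans the start, from position -4 to 4. Windows were found for 25 of the 34 carriers. A match stood in 3 of those genes (12%), the other being Slc7a7, which stayed below 1 FPKM, and 4.51% of the 27025 genes with a window held one. No match was found for Slc38a2, described below as raised by ATF4, and whether it had a window is not given here. Some genes have several windows. Of the 36 carrier windows 4 held a match, 2 of them of Slc7a7, beside 3.97% of all 32851 windows. Sequence outside the windows was not searched. A match is a run of letters and does not show that a factor binds there.

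Slc7a6 (chr8:106168857-106198706, plus strand) encodes a light chain that swaps basic amino acids for neutral ones together with sodium. Its level was 25.4, 29.4 and 23.4 FPKM in Glioblastoma, 10.8, 11.3 and 8.52 in NSC, 3.92, 4.81 and 4.38 in MIM-Astrocytes, and 3.51, 2.80 and 2.74 in Astrocytes. Glioblastoma and NSC lay above both astrocyte groups in all libraries. NSC had 3.40-fold more than Astrocytes (1.48, SE 0.12, adjusted p = 1.58e-06), and Glioblastoma 2.55-fold more than NSC (1.27, SE 0.12, adjusted p = 5.73e-06). The difference of MIM-Astrocytes from Astrocytes was 0.42 (SE 0.12, adjusted p = 0.0126), and with a common total it was 0.16 (adjusted p = 0.294).

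The remaining light chains were low. Slc7a10, which carries small neutral amino acids and D-serine, was at 1.29 to 1.45 FPKM in NSC and at most 0.896 in other libraries, and Slc7a8, a carrier of large neutral amino acids, was at 0.865, 0.915 and 1.06 in Astrocytes and at most 0.173 elsewhere. Slc7a7 was at most 0.663 FPKM in any library. Summed over these 5 light chains, the level was 38.0 ± 3.11 FPKM (SD, n = 3) in Glioblastoma, 16.5 ± 1.65 in NSC, 15.04 ± 0.871 in MIM-Astrocytes and 6.55 ± 0.546 in Astrocytes. Slc7a11 made up 64.1% ± 2.67 of that sum in MIM-Astrocytes, and between 25.4% and 29.1% in the means of the other groups.

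Heavy and light chains did not keep 1 proportion. The ratio of Slc3a2 to the 5 light chains was 51.9 ± 6.42 (SD, n = 3) in Astrocytes, 11.2 ± 0.428 in MIM-Astrocytes, 14.6 ± 1.14 in Glioblastoma and 5.69 ± 0.573 in NSC. Multiplying a library by a single factor leaves this ratio as it is, and it was not recomputed after quantile normalization. It leaves out Slc7a5. The other heavy chain, Slc3a1, was at most 0.327 FPKM in any library.

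**Figure D2:**
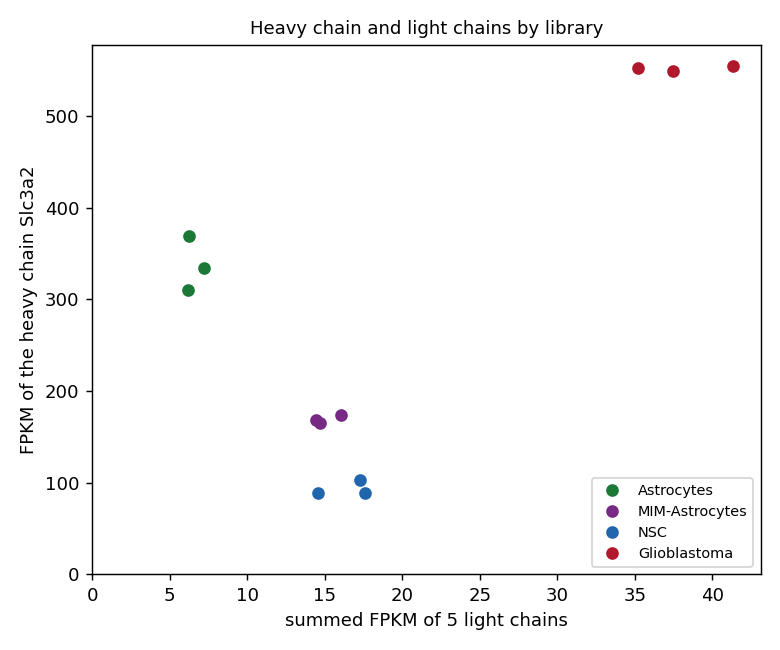
FPKM of the heavy chain Slc3a2 (y axis) against the summed FPKM of 5 light chains, Slc7a6, Slc7a7, Slc7a8, Slc7a10 and Slc7a11 (x axis), 1 point per library, both axes linear from 0. Astrocytes sit at the left with 311 to 370 FPKM of heavy chain, MIM-Astrocytes and NSC share a range of light chains at lower heavy chain levels, and Glioblastoma is highest on both axes.

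The cationic carriers bring arginine, lysine and ornithine into cells, and the gene that supplied most of their transcripts differed between groups. Slc7a1 (chr5:148327410-148399904, minus strand), the widely expressed member, was at 42.7, 41.9 and 38.2 FPKM in Glioblastoma, 4.77, 4.45 and 5.81 in MIM-Astrocytes, 1.37, 1.46 and 1.55 in NSC, and 1.08, 1.05 and 1.27 in Astrocytes. Glioblastoma stood far above all other libraries. Its level was 36.1-fold that of Astrocytes (4.30, SE 0.08, adjusted p = 2.03e-11) and 28.0-fold that of NSC (4.09, SE 0.08, adjusted p = 8.56e-11). MIM-Astrocytes had 4.42-fold more than Astrocytes (1.49, SE 0.08, adjusted p = 1.11e-07) and 3.43-fold more than NSC (1.28, SE 0.08, adjusted p = 7.79e-07). The 0.21 (adjusted p = 0.0494) of NSC over Astrocytes lost its call under most alternatives and was -0.02 with a common total.

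Slc7a3 (chrX:101079210-101086020, minus strand), a cationic carrier found mainly in brain, followed a like order. It was at 18.9, 22.3 and 25.3 FPKM in Glioblastoma, 4.91, 4.51 and 5.40 in MIM-Astrocytes, 0.790, 0.478 and 0.660 in NSC, and 0.277, 1.09 and 0.965 in Astrocytes. NSC and Astrocytes overlapped, and both stayed below every MIM-Astrocytes library. MIM-Astrocytes had 6.35-fold more than Astrocytes (1.77, SE 0.18, adjusted p = 1e-05) and Glioblastoma 28.5-fold more (3.73, SE 0.18, adjusted p = 1.29e-08).

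Slc7a2 (chr8:40862396-40922308, plus strand), a cationic carrier known from liver and from activated macrophages, ran the other way. It was at 22.9, 20.8 and 20.9 FPKM in Astrocytes, 10.6, 10.4 and 10.6 in MIM-Astrocytes, 2.71, 2.99 and 2.74 in NSC, and 2.48, 2.42 and 2.41 in Glioblastoma. The 4 groups did not overlap, although NSC and Glioblastoma lay close (-0.15, adjusted p = 0.0183, a call lost without any 1 of 3 libraries, the second or the third of Glioblastoma or the second of NSC, at adjusted p from 0.0501 to 0.0723). MIM-Astrocytes had 2.04-fold less than Astrocytes (-0.96, SE 0.05, adjusted p = 4.61e-08) and 3.75-fold more than NSC (1.60, SE 0.05, adjusted p = 5.23e-09).

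The summed level of the 3 cationic carriers was 23.4 ± 0.690 FPKM (SD, n = 3) in Astrocytes and 20.5 ± 1.24 in MIM-Astrocytes. With a common total these levels were 30.12 and 20.87 FPKM, and with median-of-ratios scaling 25.45 and 20.59. The makeup of the sum also differed. Slc7a2 made up 91.8% ± 2.27 of the sum in Astrocytes and 51.6% ± 2.61 in MIM-Astrocytes, where Slc7a1 gave 24.4% ± 1.96 and Slc7a3 24.1% ± 0.726. In Glioblastoma the sum was 65.5 ± 1.33 FPKM, of which Slc7a1 gave 62.5% ± 4.40, Slc7a3 33.8% ± 4.50 and Slc7a2 3.71% ± 0.131. NSC had the least, at 4.92 ± 0.040 FPKM.

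Relatives of these carriers without a settled substrate were low. Slc7a4 was at 2.64, 3.24 and 2.43 FPKM in MIM-Astrocytes, 1.64, 2.42 and 1.34 in Glioblastoma, 1.35, 1.42 and 1.02 in Astrocytes, and 0.809, 0.570 and 0.806 in NSC. Every MIM-Astrocytes library lay above all others. The difference was 0.74 (SE 0.14, adjusted p = 0.00115) from Astrocytes and 1.12 (SE 0.14, adjusted p = 8.08e-05) from NSC. From Glioblastoma it was 0.44 (SE 0.14, adjusted p = 0.0175), a call lost without the first or the third Glioblastoma or the second MIM-Astrocytes library (adjusted p from 0.0531 to 0.0702). Slc7a4 overlaps P2rx6 on the other strand. Slc7a14, a lysosomal relative, was at most 0.413 FPKM.

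**Figure D3:**
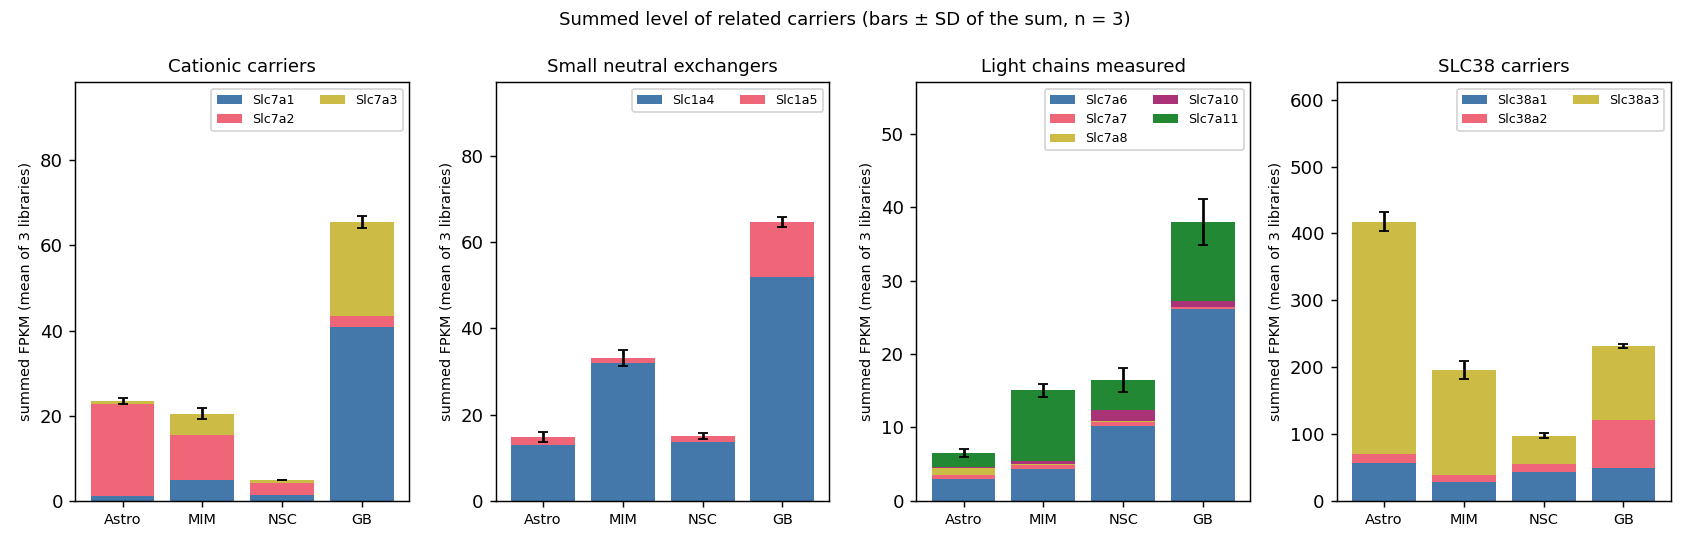
Mean FPKM of related carriers stacked by gene (y axis, linear from 0) in Astrocytes (Astro), MIM-Astrocytes (MIM), NSC and Glioblastoma (GB), with the SD of the sum over 3 libraries as the error bar. In the cationic panel Astrocytes and MIM-Astrocytes reach 23.4 and 20.5 FPKM (30.12 and 20.87 with a common total, not drawn) with different makeup. In the SLC38 panel Slc38a3 gives most of the level in both groups.

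The small neutral carriers exchange alanine, serine, cysteine and threonine (Slc1a4) or these with glutamine (Slc1a5) across the surface. Slc1a4 (chr11:20302180-20332713, minus strand), whose promoter is printed above and which is important for serine supply in brain, was at 52.3, 50.2 and 53.2 FPKM in Glioblastoma and 30.0, 33.8 and 32.5 in MIM-Astrocytes. It was at 13.2, 13.8 and 12.1 in Astrocytes and 13.6, 14.2 and 13.2 in NSC, which overlapped. MIM-Astrocytes had 2.46-fold more than Astrocytes (1.24, SE 0.06, adjusted p = 3.47e-08) and 2.34-fold more than NSC (1.17, SE 0.06, adjusted p = 1.4e-07), and Glioblastoma 3.98-fold more than Astrocytes (1.92, SE 0.06, adjusted p = 5.39e-10). NSC against Astrocytes was not called (0.07, SE 0.06, adjusted p = 0.343), but with a common total it was -0.31 (adjusted p = 0.00298).

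Its paralogue Slc1a5 (chr7:16781340-16798274, plus strand), a main glutamine exchanger of dividing cells, was high in Glioblastoma alone among these libraries. The values were 12.6, 13.4 and 12.6 FPKM there, 2.33, 1.70 and 1.39 in Astrocytes, 1.38, 1.68 and 1.30 in NSC, and 1.27, 1.10 and 1.09 in MIM-Astrocytes. Glioblastoma had 7.10-fold more than Astrocytes (2.31, SE 0.11, adjusted p = 1.25e-08), 8.85-fold more than NSC (2.50, SE 0.11, adjusted p = 1.46e-08) and 11.1-fold more than MIM-Astrocytes. In MIM-Astrocytes the difference from Astrocytes was -0.37 (SE 0.11, adjusted p = 0.0136), and adjusted p was 0.0534 when only those 6 libraries were fitted. Thus Slc1a4 was called higher and Slc1a5 lower in MIM-Astrocytes than in Astrocytes.

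Within the SLC38 family, the sodium-coupled carriers of glutamine and alanine, the order of the groups differed between Slc38a3, Slc38a2 and Slc38a1. Slc38a3 (chr9:107650634-107669530, minus strand), which can release glutamine from astrocytes, and Slc3a2 were the most abundant carriers in Astrocytes. Slc38a3 was at 355, 358 and 328 FPKM there, 140, 167 and 163 in MIM-Astrocytes, 110, 109 and 115 in Glioblastoma, and 43.1, 43.4 and 39.0 in NSC. The 4 groups did not overlap. MIM-Astrocytes had 2.21-fold less than Astrocytes (-1.14, SE 0.08, adjusted p = 4.55e-07) and 3.75-fold more than NSC (1.88, SE 0.08, adjusted p = 3.31e-08), and NSC had 8.29-fold less than Astrocytes (-3.02, SE 0.08, adjusted p = 2.09e-10).

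Slc38a2 (chr15:96687392-96699730, minus strand), the form known to be raised by ATF4 when amino acids are short, was at 72.6, 72.4 and 70.6 FPKM in Glioblastoma. It was at 14.6, 14.0 and 14.2 in Astrocytes, 12.8, 12.3 and 11.4 in NSC, and 11.2, 10.2 and 11.5 in MIM-Astrocytes, so that only Glioblastoma stood apart by a wide margin. Glioblastoma had 5.05-fold more than Astrocytes (2.26, SE 0.05, adjusted p = 7.72e-11). MIM-Astrocytes had 1.30-fold less than Astrocytes (-0.35, SE 0.05, adjusted p = 0.000295), unlike Slc7a11, Slc7a1 and Slc1a4, which were higher there. Against NSC the difference of MIM-Astrocytes was not called (-0.13, SE 0.05, adjusted p = 0.0638).

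The paralogue Slc38a1 (chr15:96571418-96642913, minus strand), a glutamine importer known from neurons, varied least of these 3. It was at 58.3, 52.1 and 58.7 FPKM in Astrocytes, 51.9, 47.1 and 46.4 in Glioblastoma, 42.8, 44.6 and 42.6 in NSC, and 28.3, 27.5 and 27.4 in MIM-Astrocytes. The MIM-Astrocytes libraries lay below all others, 2.03-fold below Astrocytes (-0.99, SE 0.06, adjusted p = 1.84e-07) and 1.56-fold below NSC (-0.62, SE 0.06, adjusted p = 1.16e-05). The 0.16 (adjusted p = 0.0392) of Glioblastoma over NSC turned negative under every other scaling (-0.20 to -0.06, adjusted p from 0.109 to 0.717). Summed over Slc38a1, Slc38a2 and Slc38a3, levels were 417 ± 14.2 FPKM (SD, n = 3) in Astrocytes, 232 ± 2.86 in Glioblastoma, 196 ± 13.8 in MIM-Astrocytes and 97.3 ± 3.88 in NSC. With a common total Glioblastoma and MIM-Astrocytes changed places in this order, at 194 and 198 FPKM. Slc38a3 gave 83.1% ± 1.30 of the sum in Astrocytes and 80.1% ± 1.85 in MIM-Astrocytes, but 48.0% ± 1.39 in Glioblastoma.

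Slc38a4 (chr15:96994820-97055956, minus strand), a paternally expressed gene best known from liver and placenta, was at 1.32, 1.60 and 1.45 FPKM in Glioblastoma and listed at 0 in the other 9 libraries, so no fold is given. Slc38a10 (chr11:120103960-120151346, minus strand), an intracellular member, was at 56.0, 52.9 and 59.6 FPKM in Glioblastoma and 22.3 to 28.0 in the other 9. Glioblastoma had 2.21-fold more Slc38a10 than Astrocytes (1.11, SE 0.07, adjusted p = 1.23e-07) and 2.38-fold more than NSC (1.22, SE 0.07, adjusted p = 1.12e-07). Slc38a5, a relative of Slc38a3, was at most 0.021 FPKM in any library. Slc38a6, whose substrates in cells are less settled, was at 6.69, 8.13 and 6.97 FPKM in Astrocytes and 3.00, 3.33 and 3.62 in MIM-Astrocytes, a difference of -0.94 (SE 0.09, adjusted p = 5.11e-06).

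The SLC6 carriers are driven by sodium and chloride. Slc6a9 (chr4:117834506-117875198, plus strand), the glial glycine transporter GlyT1, was at 66.5, 78.9 and 84.4 FPKM in MIM-Astrocytes, 27.0, 25.2 and 23.4 in NSC, 26.7, 26.3 and 24.5 in Glioblastoma, and 10.6, 9.76 and 11.9 in Astrocytes. MIM-Astrocytes lay above and Astrocytes below all other libraries, while NSC and Glioblastoma overlapped and were not called different. MIM-Astrocytes had 7.13-fold more than Astrocytes (2.72, SE 0.10, adjusted p = 3.04e-09), the largest difference of any tested carrier in that comparison on the log2(FPKM + 1) scale. The level was 3.04-fold that of NSC (1.56, SE 0.10, adjusted p = 5.13e-07) and 2.97-fold that of Glioblastoma (1.53, SE 0.10, adjusted p = 2.36e-07). Glycine is among the metabolites named for MIM, although the combination used for these libraries is not stated. A link between glycine in the medium and Slc6a9 was not tested. The gene overlaps B4galt2 and Ccdc24 on the other strand.

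Slc6a6 (chr6:91684053-91759066, plus strand), the transporter of taurine, was lowest in MIM-Astrocytes, where Slc6a9 was highest. It was at 21.5, 21.9 and 21.3 FPKM in Glioblastoma, 3.51, 3.54 and 3.63 in Astrocytes, 0.820, 0.736 and 0.860 in NSC, and 0.325, 0.253 and 0.305 in MIM-Astrocytes. The 4 groups did not overlap. MIM-Astrocytes had 12.1-fold less than Astrocytes (-1.82, SE 0.05, adjusted p = 2.52e-10), and Glioblastoma 6.05-fold more than Astrocytes (2.31, SE 0.05, adjusted p = 1.98e-11) and 26.8-fold more than NSC (3.64, SE 0.05, adjusted p = 4.85e-12). The MIM-Astrocytes values lie near the floor, with deposited intervals of 81.3% to 124% of the value to each side, so that fold is imprecise. The interval of the first MIM-Astrocytes library (0.061 to 0.590 FPKM) overlapped that of the first NSC library (0.333 to 1.31). The locus overlaps other gene models on both strands. Slc6a15, a carrier of branched-chain amino acids and proline, was at most 1.34 FPKM, and lower in MIM-Astrocytes (0.204 to 0.251) than in Astrocytes (0.631 to 0.947; -0.54, SE 0.07, adjusted p = 9.49e-05), both groups being under 1 FPKM.

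The SLC43 facilitators of Slc43a1 and Slc43a2 let large neutral amino acids such as leucine pass without sodium. Slc43a2 (chr11:75531694-75577575, plus strand) was at 29.8, 30.5 and 28.9 FPKM in Astrocytes, 7.33, 7.002 and 6.20 in MIM-Astrocytes, 7.08, 8.52 and 6.73 in NSC, and 2.21, 1.94 and 1.84 in Glioblastoma. Astrocytes lay above all others, Glioblastoma lay below them, and MIM-Astrocytes and NSC overlapped (-0.10, SE 0.09, adjusted p = 0.34). MIM-Astrocytes had 4.34-fold less than Astrocytes (-1.97, SE 0.09, adjusted p = 1.44e-08) and Glioblastoma 14.9-fold less (-3.36, SE 0.09, adjusted p = 1.12e-10). Slc43a1 (chr2:84838850-84863594, plus strand), its paralogue, was at 1.91, 1.33 and 1.40 FPKM in NSC and at or below 0.543 in the other libraries. Its lowest group was Astrocytes (0.030 to 0.064 FPKM), where the deposited intervals reached down to 0. Slc43a3 was at most 0.253 FPKM and the aromatic amino acid carrier Slc16a10 at most 0.999.

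**Figure D4:**
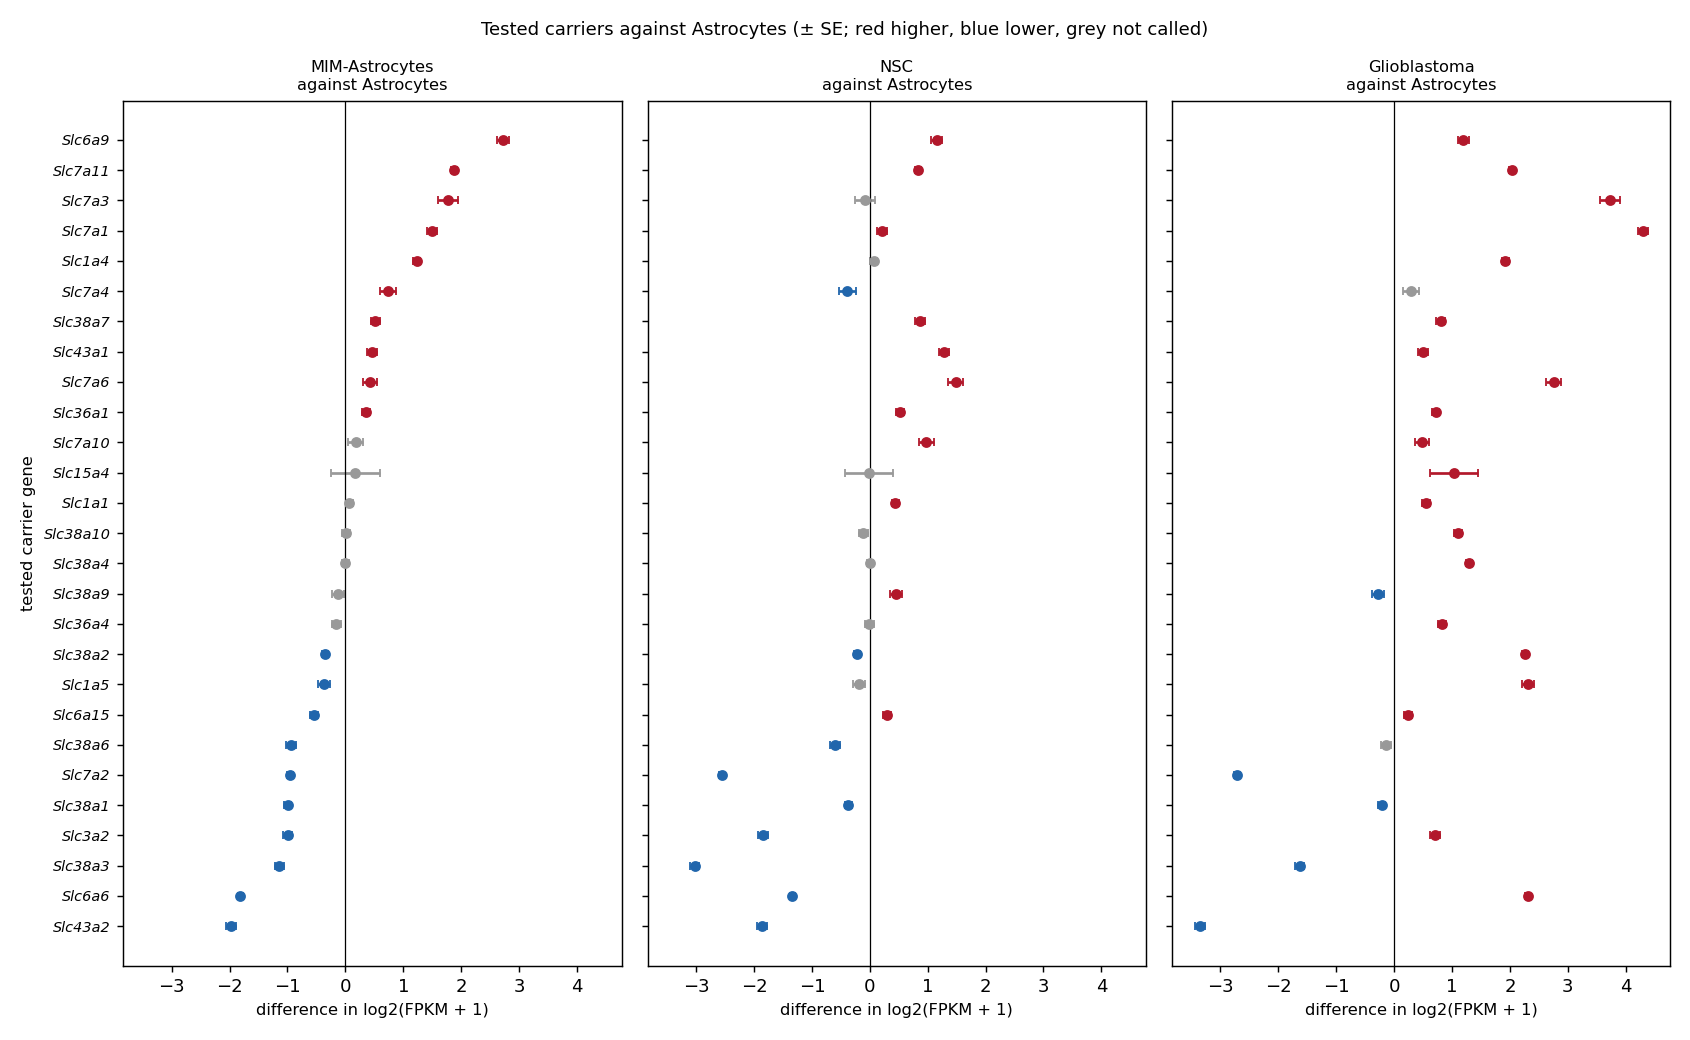
Difference in log2(FPKM + 1) from Astrocytes (x axis, ± SE) for the 27 tested carriers (y axis, ordered by the first panel) in MIM-Astrocytes, NSC and Glioblastoma, with red for higher, blue for lower and grey for not called at an adjusted p of 0.05. The panels share the Astrocytes libraries. Slc6a9 is at the top in MIM-Astrocytes (2.72) and Slc7a1 farthest right in Glioblastoma (4.30).

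The lysosomal or SLC36 carriers Slc38a7, Slc38a9, Slc15a4, Slc36a1 and Slc36a4 had group means within a 2.29-fold range for each gene. Slc38a9, the lysosomal arginine sensor of mTORC1, spanned 4.95 to 9.75 FPKM over the 12 libraries and was highest in NSC (9.45 to 9.75). NSC was higher than MIM-Astrocytes, which had -0.58 (SE 0.10, adjusted p = 0.000818), and higher than Glioblastoma, which had -0.73 (SE 0.10, adjusted p = 9.91e-05). The difference of NSC from Astrocytes was 0.46 (SE 0.10, adjusted p = 0.00251), a call lost with a common total (0.10, adjusted p = 0.531). Slc38a7, which exports glutamine from lysosomes, was at 4.59 to 5.65 FPKM in Astrocytes and 7.12 to 7.85 in MIM-Astrocytes (0.51, SE 0.08, adjusted p = 0.000235). NSC and Glioblastoma reached 8.83 to 10.3 FPKM of it.

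The SLC36 carriers Slc36a1 and Slc36a4 stayed between 2.13 and 6.81 FPKM. Slc36a4 was at 6.67 to 6.81 in Glioblastoma and 2.47 to 3.54 elsewhere (0.83, SE 0.07, adjusted p = 2.21e-06 against Astrocytes). Slc36a1 was 2.13 to 2.47 in Astrocytes and 3.17 to 3.29 in MIM-Astrocytes (0.35, SE 0.06, adjusted p = 0.000837), a call lost with a common total (0.11, adjusted p = 0.41). The histidine and peptide carrier Slc15a4 ran from 6.96 to 29.8 FPKM with a spread within groups of up to 57.5% of the mean in NSC. Its calls for Glioblastoma against Astrocytes (1.04, SE 0.42, adjusted p = 0.0415) and against NSC (1.05, adjusted p = 0.0441) ended under all 4 other scalings and without several single libraries. The glutamate and cysteine carrier Slc1a1 was at 1.57 to 1.95 FPKM in both astrocyte groups and 2.52 to 3.12 in NSC and Glioblastoma (0.55, SE 0.06, adjusted p = 1.42e-05 for Glioblastoma against Astrocytes, and 0.12, adjusted p = 0.161, with a common total).

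Summed over all 34 genes, carrier transcripts came to 1123 ± 7.01 FPKM (SD, n = 3) in Glioblastoma, 911 ± 45.0 in Astrocytes, 585 ± 35.5 in MIM-Astrocytes and 334 ± 8.89 in NSC. Slc3a2 and Slc38a3 together gave 75.2% ± 1.16 of it in Astrocytes, 59.0% ± 0.497 in Glioblastoma, 55.7% ± 0.311 in MIM-Astrocytes and 40.4% ± 1.80 in NSC. The order of the first pair turned with a common total, to 941 FPKM in Glioblastoma and 1169 in Astrocytes, and without mitochondrial genes and small RNAs, to 973 and 989.

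Among 23 genes of the ATF4 amino acid response, all tested, 22 were called higher in Glioblastoma than in Astrocytes and none lower, and 23 of 23 were higher than in NSC, beside 47% and 44.8% of all genes. The median differences were 2.21 and 2.46, beside 0.23 and 0.19 for all tested genes. Trib3, an ATF4-induced pseudokinase, was at 33.6 ± 1.64 FPKM (SD, n = 3) in Glioblastoma and 0.170 ± 0.031 in Astrocytes, and Chac1, which degrades glutathione, at 41.1 ± 0.633 and 0.661 ± 0.053. In MIM-Astrocytes against Astrocytes 16 were higher and 4 lower, with a median of 0.52 beside 0.09, and with a common total 13 were higher and 7 lower (median 0.27, beside -0.17). Aldh18a1, for proline synthesis, was at 36.3 ± 1.83 FPKM in MIM-Astrocytes and 4.54 ± 0.549 in Astrocytes, and Asns, for asparagine synthesis, at 37.2 ± 0.960 and 14.98 ± 1.29, whereas Atf3 was at 0.421 ± 0.136 and 5.09 ± 0.550.

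NRF2, held back by KEAP1, is a transcription factor for genes of glutathione synthesis and oxidant defence. Of 10 genes of cystine use and of NRF2 with its targets, 4 were higher and 4 lower in MIM-Astrocytes than in Astrocytes, although Slc7a11 was higher, and with a common total 3 were higher and 5 lower. Against NSC, 9 were higher and none lower, beside 31% and 24.9% of all genes (median 1.06, beside 0.02). Gclm, a subunit of the enzyme that starts glutathione synthesis, was at 71.6 ± 2.19 FPKM in MIM-Astrocytes and 16.9 ± 0.961 in NSC. In Glioblastoma against Astrocytes 3 were higher and 7 lower (median -1.03), beside 47% and 31.3% of all genes, and with a common total 0 and 8, beside 27.5% and 47.1%. Hmox1, for heme breakdown, was at 30.0 ± 0.448 FPKM in Glioblastoma and 152 ± 14.9 in Astrocytes.

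Of 26 other amino acid carriers of the plasma membrane, vesicles and lysosome, 7 passed the filter, and 5 of these were higher and 1 lower in MIM-Astrocytes than in Astrocytes (3 and 2 with a common total). The GABA transporter Slc6a11 was at 72.7 ± 4.84 FPKM in NSC, 60.4 ± 3.38 in MIM-Astrocytes, 27.5 ± 0.458 in Glioblastoma and 0.582 ± 0.095 in Astrocytes, so that Astrocytes were the group that lacked it. The lower one was Slc36a2, at 0.093 ± 0.006 FPKM in MIM-Astrocytes and 3.27 ± 0.247 in Astrocytes. Of 11 tested mitochondrial carriers 5 were higher and 1 lower in the same comparison (3 and 4 with a common total), among them the serine carrier Sfxn1 (21.1 ± 0.843 and 11.6 ± 0.587 FPKM). Of 19 tested genes for lysosomal amino acid sensing by mTORC1, 6 were higher and 7 lower (2 and 12 with a common total). These lists, like the carriers, are read beside 34.8% of all genes called higher and 26.6% lower in that comparison, and with a common total beside 18.9% and 40%.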

How the data were processed

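The authors deposited 1 table per library with Cufflinks FPKM per gene and an interval for each value, per the file headers; GRCm38 and Cufflinks are named in the submitters' processing notes. The aligner, versions and strandedness are not given in the sources used here. Gene identifiers on more than 1 line (45) were summed. Genes with at least 1 FPKM in at least 3 libraries and the status OK in all 12 were tested (16982). Values were taken as log2(FPKM + 1), and limma 3.58.1 (R 4.3.3) then estimated a mean for each group from the 12 libraries together, with a variance trend; tests were two-sided. Folds are ratios of mean FPKM. The script was tested on simulated data. Tables were read with Python 3.11.15 and pandas 2.3.3.

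FPKM carry no counts, so depth is known only through the deposited intervals, whose median half-width for the carriers was 16.4% of the value at 1 to 5 FPKM, 8.66% at 5 to 50 and 3.97% above. Intervals cover counting and assignment error only.

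Carriers and gene lists were chosen by name, with earlier results of these data known. All 34 carriers are accounted for: those with a range of group means of at least 1 on the log2 scale by library, up to 6 paralogues or partners in more detail, the others by range or calls, and at most 4 genes of another list per comparison. Folds are not given against groups listed at 0.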

Additional observations from a re-analysis of the deposited data

How the results depend on the processing

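Alternatives were another pseudocount (0.1 or 0.5), other filters, 4 other scalings, the replicate block, the 6 compared libraries only, and each library left out. Of 131 called carrier differences, 105 kept call and direction under all of these, 25 lost one of them under a setting that kept every library, and 11 without 1 library. Those that reversed were Slc3a2 in Glioblastoma against Astrocytes (quantile -0.13), Slc6a15 in the same comparison (common total -0.06), Slc36a1 in Glioblastoma against NSC (-0.052 without mitochondrial genes and small RNAs), Slc7a1 in NSC against Astrocytes (common total -0.022), Slc38a1 in Glioblastoma against NSC (common total -0.06, median-of-ratios -0.079, quantile -0.20, without mitochondrial genes and small RNAs -0.15) and Slc7a11 in MIM-Astrocytes against Glioblastoma (0.097, 0.014, 0.024 and 0.047 in that order). The uncalled Slc1a4 difference of NSC from Astrocytes was -0.31 with a common total. The cause was not tested.

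With a common total, genes called higher and lower were 4673 and 7992 in Glioblastoma against Astrocytes and 3203 and 6788 in MIM-Astrocytes against Astrocytes; in NSC against Astrocytes 3784 genes and 6 carriers were higher. With a mean of at least 5 FPKM fewer genes (10289) were tested. Genes lower were then 2928 in Glioblastoma against Astrocytes, 2304 in Glioblastoma against NSC, 2583 in MIM-Astrocytes against Astrocytes and 2558 in MIM-Astrocytes against NSC; 2870 were higher in MIM-Astrocytes against Glioblastoma, and 4135 were higher and 3610 lower in NSC against Astrocytes. Of the 18 carriers then tested, 12 were higher in Glioblastoma against Astrocytes, beside 5518 of 10289 genes, and 3 lower in Glioblastoma against NSC, beside 2304. In MIM-Astrocytes against NSC 6 were lower, beside 2558 genes, and in NSC against Astrocytes 5 were higher, beside 4135. With no filter, 8062 genes were lower in Glioblastoma against Astrocytes and 6427 in Glioblastoma against NSC.

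Same-numbered libraries of different groups deviated together at correlations of -0.058 to 0.097, and 8 of 18 were best with their own number, so the numbers were not read as pairs. With the replicate block 10 carriers were higher and 10 lower in MIM-Astrocytes against Astrocytes; calls lost were Slc7a1 in NSC against Astrocytes (adjusted p = 0.0566) and Slc36a1 in MIM-Astrocytes against NSC (adjusted p = 0.069).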
